A study of Homo sapiens with 6 samples.

Results

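RT4P-BSE2 is a culture of RT4 bladder cancer cells that had passed through the blebbishield emergency program 2 times in series, and it was compared with the parental culture, RT4P. Its members are 2 samples of the 6 in the series, chosen by their labels, each hybridised to 1 Illumina HumanHT-12 version 4 bead array. Of 34694 gene names on the array, 14238 genes were measured, meaning that RT4P, RT4P-BSE2 or both detected a probe of the gene at p below 0.01. RT4 is an established human line from a papillary bladder tumour. Both samples were untreated live cells grown in the same supplemented MEM with serum. The other 4 arrays give context only. They hold RT4P blebbishields, made with 1 uM cisplatin and 20 mM lithium chloride over 24 h, transformed spheres purified 4 h into transformation following that treatment, RT4v6 live cells, passaged 6 times in mice, and PBSHMS live cells, a fusion line made from RT4 blebbishields and human blood mononuclear cells.

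With 1 array per culture, replicate error is unknown and p-values are left out. The labels do not say how many clones RT4P-BSE2 holds or how long it was grown after the program. In cultures like these, a change in every cell and a change in the share of some cells cannot be told apart. Levels below are background-corrected, quantile-normalized intensities on the log2 scale, and a difference is RT4P-BSE2 minus RT4P. Higher and lower refer to genes past 2-fold. A fold written with "at least" is a bound, used when the dimmer of the arrays did not detect the gene. Among the 3233 genes with more than 1 detected probe, the difference seen by 1 probe had an SD of 0.242 between probes of the same gene, which also holds transcript differences and cannot stand in for replicate error.

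A blebbishield is a body that an apoptotic cell forms from its remaining core and membrane blebs, and such bodies can fuse into spheres and return to growth. Interferon-stimulated genes are a large antiviral set. Interferon outside the cell, acting through its receptors and the kinases JAK1 and TYK2, leads to a complex of transcription factors that binds the interferon-stimulated response element in their promoters. Hypoxia-responsive genes, many of them glycolytic, carry a shorter element that is bound by the HIF transcription factors when oxygen is low, and the VHL and EGLN proteins lead to the destruction of HIF when oxygen is present. The urothelium, the tissue from which RT4 came, is marked at its luminal surface by uroplakins and by keratin 20.

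Promoters are shown for genes of these 2 groups whose promoter is in RefSeq and holds the matching element, taking those with the largest differences. Every promoter shown therefore holds a match, and some genes with differences as large are left out. The sequences are from RefSeq on GRCh38.p14, in the direction of the gene, and only the 250 bases before the gene start were searched. For the interferon element the letters TTTCNNTTTC were searched on both strands, which reads GAAANNGAAA on the other strand, and capitals mark the match nearest to the gene start.
IFITM1, chr11:313975-314034, + strand: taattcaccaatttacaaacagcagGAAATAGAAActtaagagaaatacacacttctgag
IFI44L, chr1:78620350-78620409, + strand: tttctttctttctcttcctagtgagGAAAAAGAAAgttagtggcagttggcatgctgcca
BST2, chr19:17405720-17405779, - strand: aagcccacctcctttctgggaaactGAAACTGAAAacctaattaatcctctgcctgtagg
IFI27, chr14:94110616-94110675, + strand: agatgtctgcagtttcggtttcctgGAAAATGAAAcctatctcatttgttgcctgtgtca
IFIT1, chr10:89392495-89392554, + strand: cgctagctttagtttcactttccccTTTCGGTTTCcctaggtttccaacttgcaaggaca
ISG15, chr1:1013365-1013424, + strand: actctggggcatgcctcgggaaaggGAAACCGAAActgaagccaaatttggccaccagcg
Such a match was present in 21 of the 33 interferon-stimulated genes of the list whose promoter is in the RefSeq table, or 63.6%. Of all 27305 promoters searched in the same way, 839, or 3.07%, held it. The 21 listed genes with a match had a median difference of 2.23. The 12 without a match, MX1 and RSAD2 among them, had a median of 2.03.

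For the hypoxia response element the core ACGTG was searched on both strands, which reads CACGT on the other strand. These letters overlap the E-box, so a match does not tell which factor could bind.
CA9, chr9:35673885-35673927, + strand: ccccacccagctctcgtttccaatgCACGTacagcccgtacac
ALDOC, chr17:28576896-28576948, - strand: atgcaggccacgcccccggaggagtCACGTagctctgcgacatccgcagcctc
BNIP3, chr10:131982027-131982081, - strand: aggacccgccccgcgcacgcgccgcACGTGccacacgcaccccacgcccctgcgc
ENO2, chr12:6914437-6914491, + strand: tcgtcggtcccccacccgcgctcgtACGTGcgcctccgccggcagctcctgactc
The core was present in 11 of the 25 hypoxia and glycolysis genes with a promoter in the table, or 44.0%, against 5101 of all 27305 promoters, or 18.7%. In CA9, which encodes a cell-surface carbonic anhydrase, the match lies 14 to 18 bases before the gene start. A match is a description of the letters and does not show binding in these cells.

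Most genes differed little between the 2 arrays. Of the 14238 measured genes, 186 were at least 2-fold higher in RT4P-BSE2, or 1.31%, and 39 were at least 2-fold lower, or 0.274%. At 4-fold, 40 genes were higher, or 0.281%, and 2 were lower. The median difference of all genes was -0.01, and 95% of them lay between -0.60 and 0.73. Of the genes past 2-fold, 82.7% were higher in RT4P-BSE2. Of 60 genes past 2-fold with another detected probe, 59 had that probe in the same direction. Of the 39 lower genes, 18 were under a log2 level of 7 on the RT4P array. With no background correction and a floor of 16 in place of the offset, 5 genes were lower instead of 39 and 99 higher instead of 186.

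**Figure D1:**
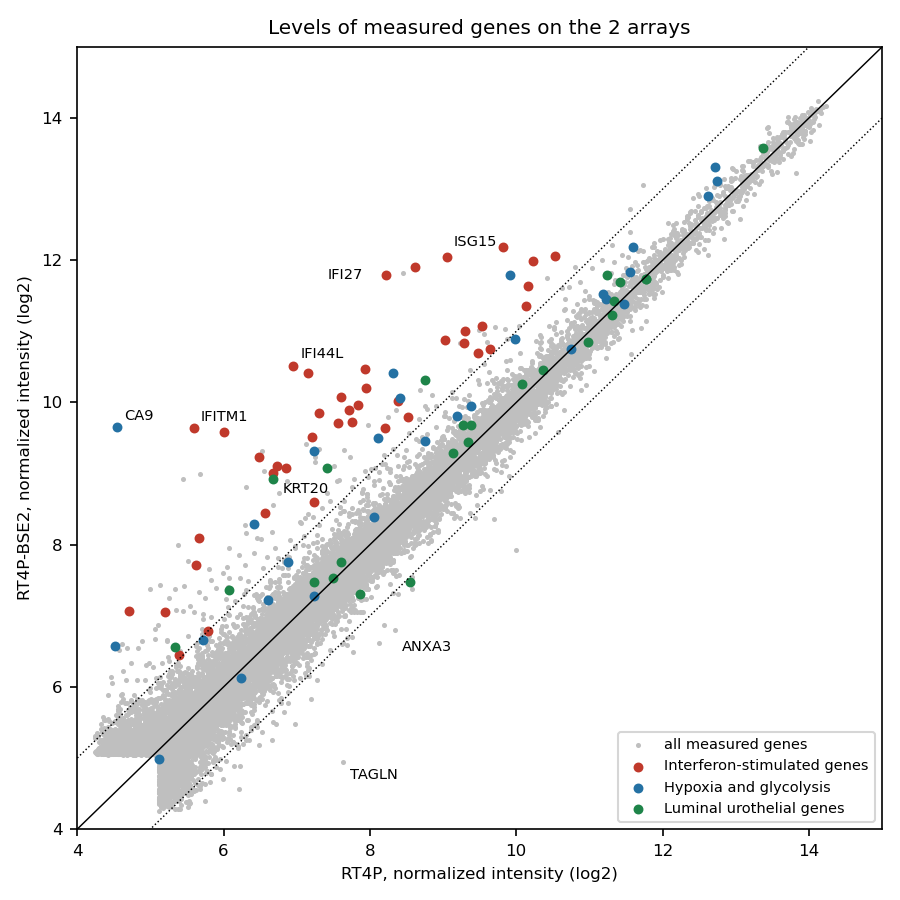
Normalized log2 intensity of each measured gene on the RT4P array (x axis) and the RT4P-BSE2 array (y axis), 1 array each. Grey points are all 14238 genes, coloured points are members of 3 gene lists, the solid line marks equal levels and the dotted lines mark 2-fold. Interferon-stimulated genes form a band above the upper dotted line from low to high levels, and few genes lie below the lower one.

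Interferon-stimulated genes had the largest median difference of the lists examined. From each list up to 4 of the members with the largest differences are named, and further members, chosen after their values had been seen, are named to show each role. All 42 listed genes were measured, with a median difference of 2.12. In RT4P-BSE2 41 were at least 2-fold higher, against 1.31% of all genes, and 22 were at least 4-fold higher, against 0.281%. The remaining gene, the transcription factor IRF7, stood at 5.79 on RT4P and 6.78 on RT4P-BSE2, just under 2-fold. These 41 genes made up 22.0% of all genes called higher, and 22 of the 40 genes past 4-fold were from this list. On the RT4P array 41 of the 42 were already detected.

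The surface and membrane proteins of the group held some of its largest differences. IFITM1, which blocks the entry of enveloped viruses, had a level of 5.59 on RT4P and 9.64 on RT4P-BSE2, 16.6-fold higher, and lay between 4.28 and 4.80 on the other 4 arrays. Its neighbours on chromosome 11, IFITM2 (9.03 and 10.88) and IFITM3 (9.30 and 11.01), differed 3.59-fold and 3.28-fold, and because these genes are alike in sequence their probes may share signal. BST2, which tethers budding virions to the cell, stood at 6.01 on RT4P and 9.59 on RT4P-BSE2, 11.9-fold higher. It was the 1 gene of the 42 that was not highest on RT4P-BSE2, since RT4v6 had 10.21.

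Effectors that act on viral RNA differed to varying degrees. IFIT1, which binds foreign RNA, stood at 8.61 and 11.90, a 9.81-fold difference by its brighter probe, while its other, dim probe read 4.51 and 6.04. The other listed members of its cluster on chromosome 10, IFIT2 (4.76-fold), IFIT3 (3.93-fold) and IFIT5 (2.09-fold), were also higher. The oligoadenylate synthetases, which activate RNase L, were each about 3-fold higher. OAS1 stood at 9.53 on RT4P and 11.07 on RT4P-BSE2, OAS2 at 10.23 and 11.99, and OAS3 at 9.29 and 10.84, or 2.91-fold, 3.39-fold and 2.93-fold higher. The relative OASL, from 7.60 to 10.08, differed 5.55-fold by its brighter probe, with a log2 difference of 1.24 on its other probe. The other probe of OAS3 was dim, at 4.43 and 5.53.

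The GTPases MX1 and MX2 block viral replication. MX2 stood at 7.16 on RT4P and 10.41 on RT4P-BSE2, 9.52-fold higher. MX1 stood at 9.82 on RT4P, 12.19 on RT4P-BSE2 and 6.85 to 8.56 on the other 4 arrays, a 5.17-fold difference between the first pair. RSAD2, also called viperin, stood at 6.49 and 9.24, 6.72-fold higher, and its neighbour on chromosome 2, the nucleotide kinase CMPK2, at 5.20 and 7.05. IFI44L at 6.95 and 10.52, IFI27 at 8.22 and 11.79, IFI44 at 7.93 and 10.47 and EPSTI1 at 7.31 and 9.85 had folds from 5.81 to 11.9. They were among the 15 largest higher differences of genes with an established symbol, a log2 level of at least 7 on either array and other detected probes in the same direction. IFI6, at 10.53 and 12.06, differed 2.88-fold by its brighter probe and by 3.22 on the log2 scale by its other probe.

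ISG15, a ubiquitin-like modifier, stood at 9.05 on RT4P and 12.05 on RT4P-BSE2, 8.0-fold higher, with 8.02 to 9.06 on the other 4 arrays. Its ligase HERC5 (6.85 and 9.08) and the related HERC6 (7.21 and 9.52) differed 4.69-fold and 4.97-fold. USP18, which removes ISG15 and restrains the interferon receptor, stood at 6.56 and 8.44, 3.70-fold higher. Of the enzymes upstream of the ligase, which are outside the list and were chosen after their values had been seen, the conjugating enzyme UBE2L6 (10.42 and 11.75) differed 2.52-fold, with a log2 difference of 0.62 on its other probe, and the activating enzyme UBA7 (7.89 and 8.74) 1.80-fold.

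**Figure D2:**
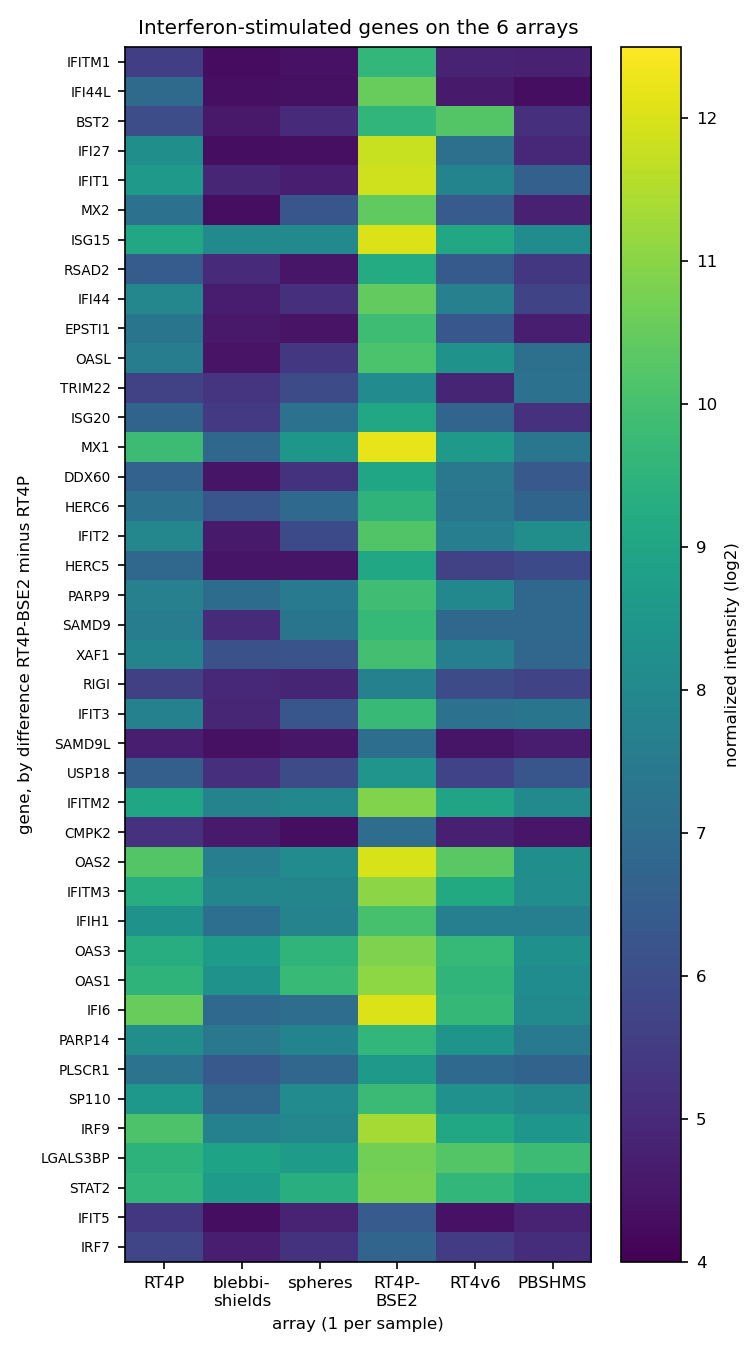
Normalized log2 intensity of 41 of the 42 interferon-stimulated genes (rows, ordered by the difference between RT4P-BSE2 and RT4P) on the 6 arrays (columns, 1 array per sample). The RT4P-BSE2 column is the brightest in 40 rows, BST2 is brightest on RT4v6, and the blebbishield column is dark for most genes.

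Across the series the list had its highest median on RT4P-BSE2, 9.93, against 7.73 on RT4P, 7.64 on RT4v6, 6.84 on PBSHMS, 6.27 on spheres and 5.23 on blebbishields. The number of the 42 genes not detected was 23 on blebbishields, 11 on spheres, 11 on PBSHMS, 6 on RT4v6, 1 on RT4P and 0 on RT4P-BSE2. The 41 genes that were highest of the 6 arrays on RT4P-BSE2 compare with 14.5% of all measured genes.

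Genes of interferon signalling were next set beside these targets, in lists that were chosen after the values had been seen. None of 21 interferon genes, among them IFNB1 and the lambda interferons, had a probe detected on either array, which says only that no such RNA stood above background. The receptor subunits and kinases differed little. IFNAR1 stood at 7.35 on RT4P and 7.45 on RT4P-BSE2, IFNAR2 at 7.74 and 7.85, IFNLR1 at 6.62 and 6.64, JAK1 at 8.74 and 8.57 and TYK2 at 9.69 and 9.54. All 8 measured genes of this kind lay between -0.27 and 0.17. In contrast, the downstream transcription factors STAT2 and IRF9, which are themselves interferon-stimulated, were higher. STAT2 stood at 9.64 on RT4P and 10.75 on RT4P-BSE2 and IRF9 at 10.13 and 11.36, or 2.15-fold and 2.35-fold higher.

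Of 17 measured nucleic acid sensors and their adaptors 6 were higher, none was lower and the median was 0.30. These 6 include RIGI and IFIH1, which the interferon-stimulated list also holds. Among all measured genes 1.31% were higher. The RNA sensors RIGI (5.62 and 7.72), IFIH1 (8.38 and 10.02) and DHX58 (6.21 and 7.85) differed 4.30-fold, 3.12-fold and 3.13-fold. TLR7, a sensor of single-stranded RNA in endosomes, stood at 5.72 and 7.02, and EIF2AK2, the kinase PKR, at 9.12 and 10.15. AIM2, which senses DNA, stood at 8.19 and 9.26. Other sensors did not pass 2-fold. TLR3 stood at 5.13 and 5.64, IFI16 at 7.52 and 8.05 and CGAS at 6.77 and 6.56. The RNA-editing enzyme ADAR stood at 11.20 and 11.49 by its brighter probe, while its other probe gave a log2 difference of 0.99. ZBP1 was not detected on RT4P and stood at 5.11 on RT4P-BSE2. The 6 adaptors, kinases and transcription factors of this list that act between the sensors and interferon production had differences from -0.27 to 0.14. The transcription factor IRF7, counted in the interferon-stimulated list, is not among them and differed by 0.99. MAVS stood at 5.77 and 5.85, TBK1 at 9.78 and 9.87, IRF3 at 8.13 and 7.86 and STING1 at 8.68 and 8.42. Of 8 measured interferon feedback genes 3 were at least 2-fold higher, 0 were lower and the median was -0.12. ISG15 and USP18, also in the interferon-stimulated list, are among the higher ones, while SOCS1 (5.66 and 5.34) and SOCS3 (5.26 and 5.13) did not pass 2-fold.

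Genes of antigen presentation by MHC class I, which interferon also induces, differed to a smaller extent. Of 15 measured genes, 3 were at least 2-fold higher, against 1.31% of all genes, and none was lower. The median was 0.44, and all 15 differences were above 0, against 46.7% of all genes. HLA-B stood at 9.71 on RT4P and 11.06 on RT4P-BSE2, 2.56-fold higher, although probes for classical HLA genes can share signal. The peptide transporter subunits TAP2 (6.03 and 7.24) and TAP1 (10.04 and 11.07) differed 2.32-fold and 2.04-fold. HLA-F (9.12 and 10.07) differed 1.94-fold by its brighter probe, with a log2 difference of 1.34 on its other probe. The immunoproteasome subunits PSMB8 and PSMB9 differed by 0.53 and 0.48. B2M, the shared light chain, was at 13.79 and 13.91. In the MHC class II pathway 0 of 6 measured genes passed 2-fold, where 1.58% of all genes did in either direction. The invariant chain CD74 stood at 10.23 and 10.16.

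Of 10 measured chemokines 4 were higher, against 1.31% of all genes, and none lower. Their median was 0.66, or 0.18 when members detected on neither array are counted too. CXCL10, a T cell attractant, stood at 8.45 on RT4P and 11.82 on RT4P-BSE2, 10.3-fold higher, and at 11.05 on RT4v6. CXCL11, which shares its receptor and lies beside it on chromosome 4, stood at 5.13 and 7.43, 4.92-fold higher. CCL5 (7.06 and 8.30) differed 2.37-fold and the neutrophil attractant CXCL6 (6.34 and 7.49) 2.21-fold. The neutrophil attractants CXCL8 (10.32 and 10.20) and CXCL1 (8.13 and 8.30) did not pass 2-fold, and the other probe of CXCL8 gave -0.81. None of 17 measured NF-kB targets and cytokines passed 2-fold in either direction, and their median was 0.13. Of all genes 1.58% did so, and a list of this size would hold few such genes at that share.

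Markers of blood cells were examined beside this result. Of 10 pan-leukocyte markers 5 were measured, and the defining PTPRC, CD53, CORO1A, LAPTM5 and CD37 were not detected on either array. The summed normalized intensity of the measured ones was 12816 on RT4P and 9496 on RT4P-BSE2, most of it from ARHGDIB and LCP1, which both cultures expressed. CD48 (5.67 and 7.33) and SRGN (5.83 and 6.98) were at least 2-fold higher. Of 14 T and NK cell markers 12 were not detected, the CD3 chains among them, while IL7R stood at 5.52 and 6.72 and CD2 was near the detection limit. Of 8 B cell markers 1, CD79A, was measured, at 5.12 and 5.45. Of 12 monocyte and macrophage markers 7 were measured, with a summed intensity of 5879 on RT4P and 5677 on RT4P-BSE2. Of these sums 5264 and 4667 came from S100A9, which epithelial cells also express, and the rest was 615 and 1009. MS4A7 (5.51 and 7.77) was 4.78-fold higher and S100A8 stood at 8.26 and 8.88, while LYZ, CSF1R, TYROBP, FCER1G and CD163 were not detected. Of 12 fibroblast and endothelial markers only VWF was measured, at 7.03 and 6.31. The part of the higher markers in the interferon result was not tested.

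**Figure D3:**
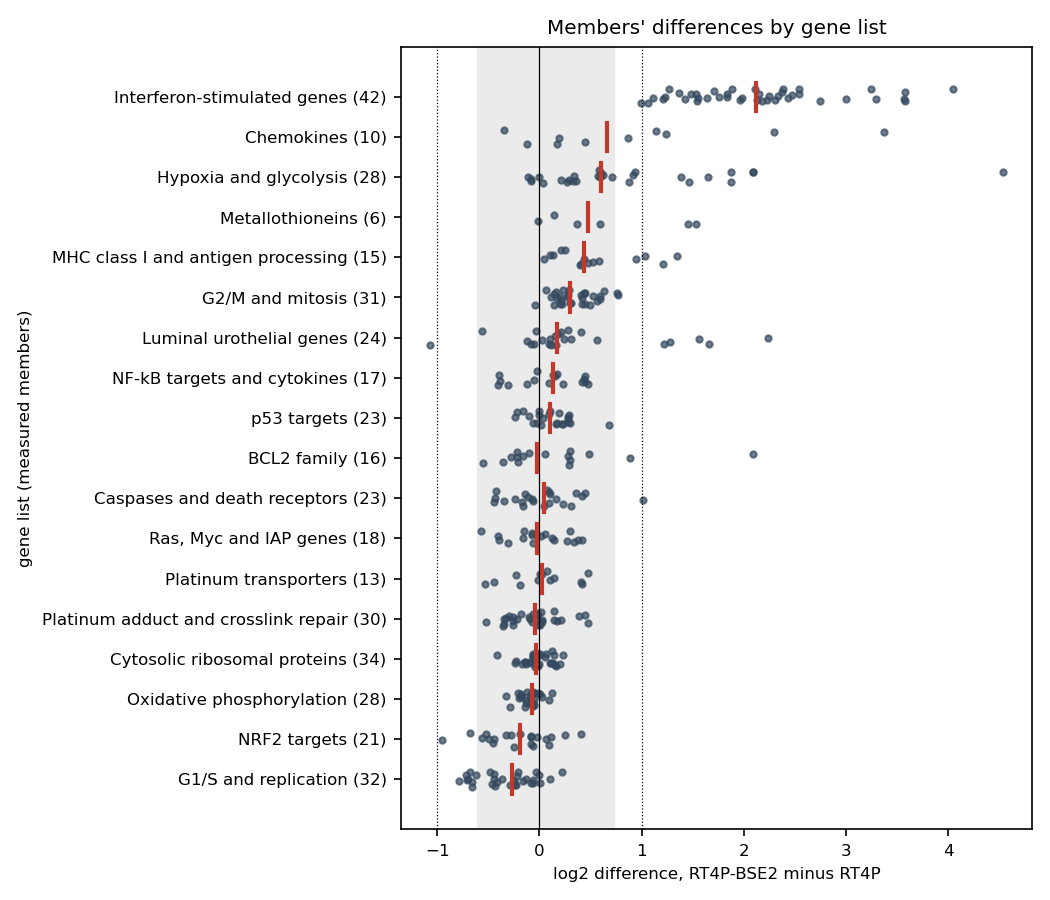
Log2 difference (RT4P-BSE2 minus RT4P, x axis) of each measured gene in 18 gene lists (rows, with the number of measured genes). Each point is 1 gene, the red bar is the list's median, dotted lines mark 2-fold and the grey band holds 95% of all measured genes. The interferon-stimulated list has its median at 2.12, hypoxia and glycolysis at 0.60, and lists for apoptosis, platinum handling and Ras have medians near 0.

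Genes of the hypoxia response and glycolysis formed the next group. All 28 were measured, 8 were at least 2-fold higher, none was lower and the median was 0.60. Of the 28 differences 25 were above 0, and 19 of the genes were highest of the 6 arrays on RT4P-BSE2. Over all measured genes 1.31% were at least 2-fold higher, 46.7% lay above 0 and 14.5% were highest on RT4P-BSE2. CA9 had the largest difference of all named genes. It was not detected on RT4P, with a raw signal of 102.2, and had a raw signal of 935.7 and a level of 9.65 on RT4P-BSE2, at least 23.2-fold higher. The other 4 arrays had levels from 4.50 to 5.63.

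Among glycolytic enzymes the differences were larger for ALDOC and ENO2, best known from the nervous system, than for the widely expressed ALDOA and ENO1. The aldolase ALDOC stood at 7.23 on RT4P and 9.32 on RT4P-BSE2, 4.26-fold higher, while ALDOA stood at 11.56 and 11.84. The enolase ENO2 stood at 6.41 and 8.29, 3.67-fold higher, while ENO1 stood at 12.62 and 12.91. PFKFB4 (8.41 and 10.06) and PFKFB3 (8.11 and 9.50), which make the activator of phosphofructokinase, differed 3.14-fold and 2.63-fold. The glucose transporter SLC2A3 was not detected on RT4P and stood at 6.57 on RT4P-BSE2, at least 2.76-fold higher, and SLC2A1 stood at 9.98 and 10.90, 1.90-fold higher. LDHA (12.72 and 13.31) and PGK1 (11.60 and 12.18) were 1.51-fold and 1.49-fold higher. SLC16A3 and CA12, other members, differed by -0.11 and -0.08, and PDK1, at 5.12 on RT4P, was not detected on RT4P-BSE2.

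BNIP3, a mitophagy receptor of the BCL2 family, stood at 8.32 and 10.41, 4.26-fold higher, and was the only 1 of 16 measured BCL2 family genes past 2-fold, while the related receptor BNIP3L stood at 9.17 and 10.06. NDRG1, a stress-responsive gene, stood at 9.92 and 11.80, 3.68-fold higher. VEGFA (8.06 and 8.39) and ADM (11.23 and 11.45), both secreted vascular factors, differed by 0.34 and 0.21.

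A further list of hypoxia-responsive genes was chosen after the values had been seen. In it 9 of 15 measured genes were higher and none was lower, a count that the choice may have favoured. Among all measured genes 1.31% were higher. PLOD2, a collagen lysyl hydroxylase, stood at 5.68 on RT4P and 8.99 on RT4P-BSE2, 9.96-fold higher, and its other, dim probe read 4.97 and 6.06. ANGPTL4 stood at 8.25 and 9.79 and the lipid droplet protein HILPDA at 9.49 and 11.02, or 2.91-fold and 2.88-fold higher, although the other probes of ANGPTL4 gave log2 differences of 0.51 and 0.12. The 6 members under 2-fold were INSIG2 (0.99), ERO1A (0.83), BHLHE40 (0.77), TMEM45A (0.47), RIOK3 (0.00) and PLOD1 (-0.02) by their log2 differences. None of 12 measured HIF subunits and oxygen-sensing genes passed 2-fold, where 1.58% of all genes did in either direction. HIF1A stood at 8.72 and 8.65, EPAS1 at 11.04 and 11.20, VHL at 9.78 and 9.95 and EGLN1 at 6.61 and 7.22. HIF activity is set largely through protein stability, which these arrays do not measure.

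Luminal urothelial genes were heterogeneous. Of 24 measured, 5 were higher, 1 was lower and the median was 0.17, where 1.31% of all genes were higher and 0.274% lower. The uroplakins UPK2 (7.42 and 9.08), UPK1A (8.75 and 10.31) and UPK3A (6.08 and 7.36), which build the plaques of the luminal surface, differed 3.16-fold, 2.94-fold and 2.43-fold. UPK1B (7.60 and 7.76) and UPK3B (7.24 and 7.48) did not pass 2-fold. PSCA, a luminal surface antigen, stood at 5.34 and 6.56, 2.33-fold higher. Levels as high or higher were seen on other arrays, 9.16 and 9.31 for UPK2 on RT4v6 and PBSHMS, and 8.09 for PSCA on RT4v6.

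KRT20 stood at 6.68 on RT4P and 8.92 on RT4P-BSE2, 4.72-fold higher by its brighter probe, but its other probe was near the detection limit, at 4.57 and 5.07, and gave no usable difference. KRT18 stood at 8.55 and 7.48, 2.10-fold lower, with 5.29 and 4.98 on its other, dim probe, and the array also carries near-identical KRT18 pseudogenes, so this value is uncertain. Its partner KRT8 stood at 10.98 and 10.85. Of the transcription factors of the luminal state, PPARG stood at 11.42 and 11.70, FOXA1 at 11.78 and 11.73 and GATA3 at 9.34 and 9.45. The receptors FGFR3 (11.34 and 11.43) and ERBB2 (10.37 and 10.46) did not pass 2-fold. As a check of the labelled tissue, all 15 genes of a list of urothelial and epithelial identity were detected on both arrays. Besides those above they were KRT7 (11.77 and 11.74), KRT19 (13.37 and 13.58), the adhesion proteins EPCAM (12.19 and 12.18) and CDH1 (11.98 and 12.05), and the epithelial transcription factors ELF3 (10.08 and 10.26) and GRHL2 (7.94 and 7.98).

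**Figure D4:**
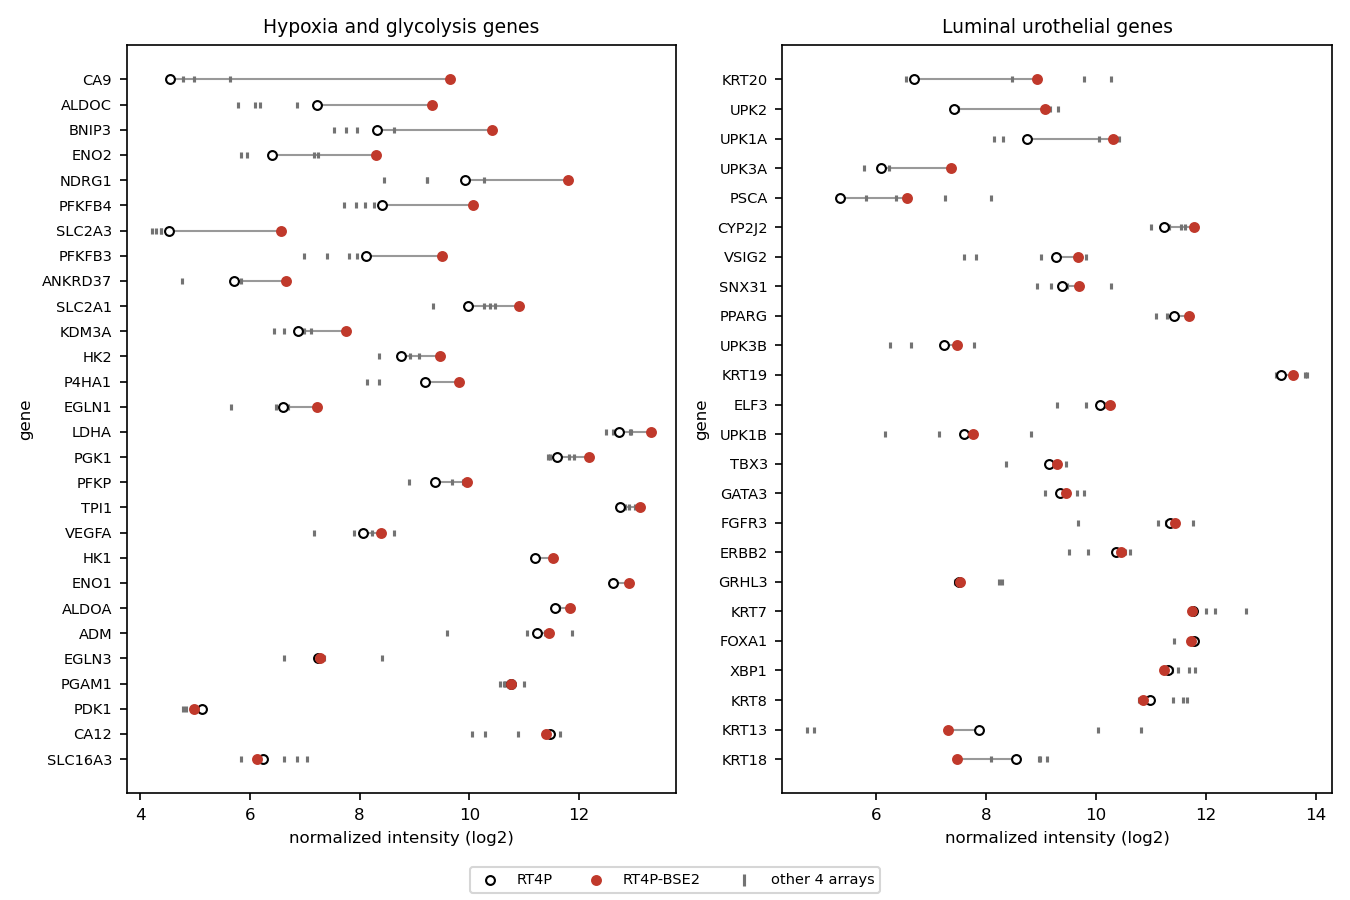
Normalized log2 intensity (x axis) of the 28 hypoxia and glycolysis genes (left) and the 24 luminal urothelial genes (right) on RT4P (open circles), RT4P-BSE2 (filled circles) and the other 4 arrays (ticks), 1 array each, with the difference drawn as a line. CA9, ALDOC, BNIP3, NDRG1 and PFKFB4 on RT4P-BSE2 lie to the right of all other arrays, whereas uroplakin levels on RT4P-BSE2 are within the range of the other arrays.

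The 2 cell cycle lists had medians on opposite sides of 0. None of 32 genes of G1/S and DNA replication and none of 31 genes of G2/M and mitosis passed 2-fold. Of all genes 1.58% did in either direction. The replication list had a median of -0.27, with 28 of 32 genes below 0, against 51.1% of all genes. The replicative helicase subunits MCM5 (8.36 on RT4P and 7.56 on RT4P-BSE2) and MCM6 (10.95 and 10.25) had differences of -0.79 and -0.70, the licensing factor CDT1 (8.56 and 7.84) of -0.72 and GINS2 (9.53 and 8.82), a subunit of the replicative helicase complex, of -0.71. The mitosis list had a median of 0.30, with 30 of 31 genes above 0 against 46.7% of all genes. Of the 31, 24 had their highest level of the 6 arrays on RT4P-BSE2, against 14.5% of all measured genes. Levels below that of RT4P were seen for 31 of them on spheres, 26 on blebbishields, 13 on PBSHMS and 11 on RT4v6. The spindle checkpoint kinase BUB1 stood at 8.46 and 9.10 and the related BUB1B at 6.70 and 7.48, and the motor KIF4A at 6.81 and 7.57, with differences of 0.63, 0.77 and 0.76. UBE2C, a ubiquitin-conjugating enzyme of mitotic exit (10.55 and 11.13), and the spindle assembly factor TPX2 (7.97 and 8.56) both differed by 0.59.

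**Figure D5:**
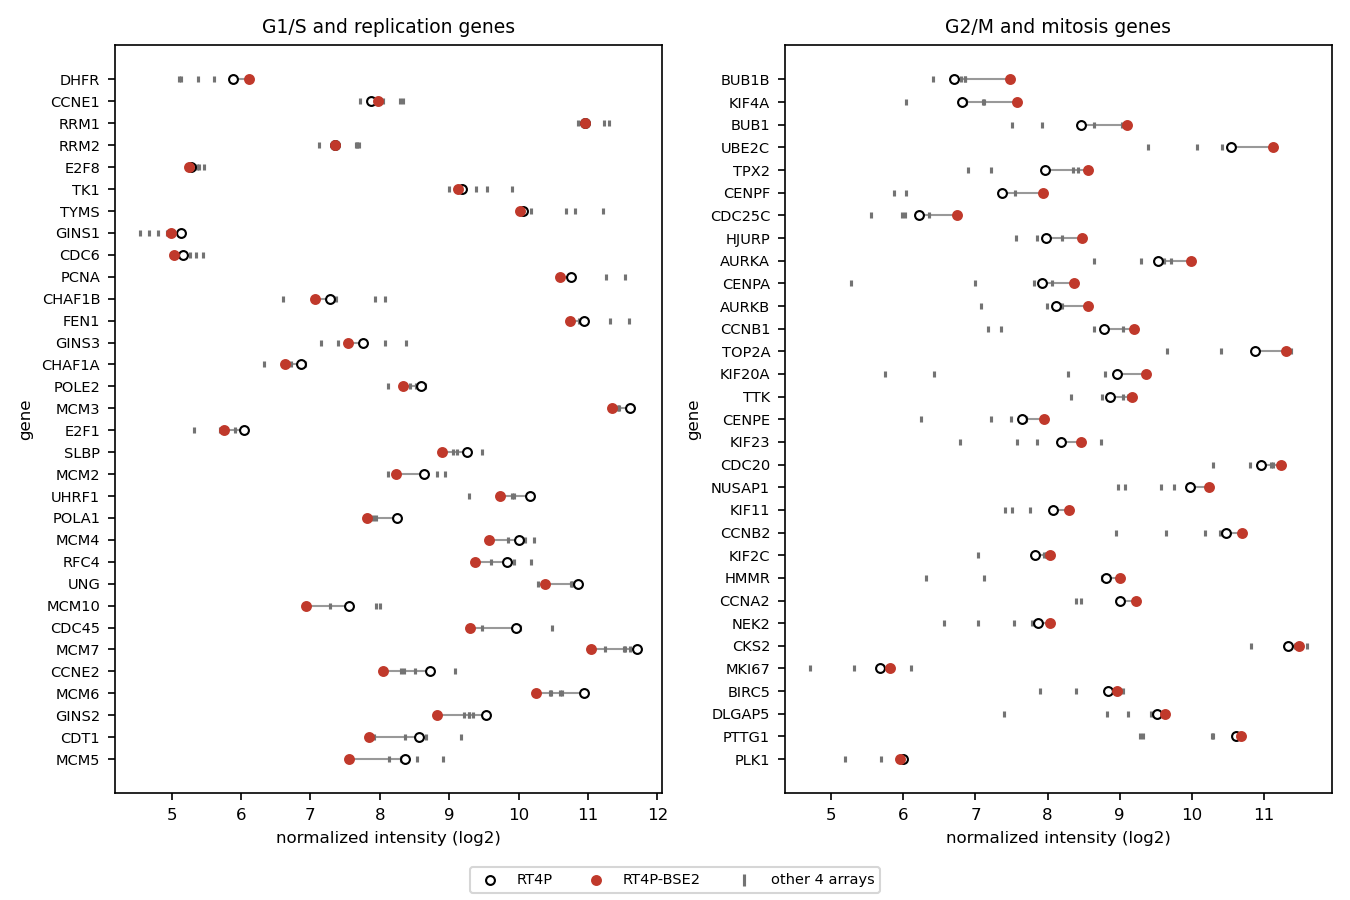
Normalized log2 intensity (x axis) of the 32 G1/S and replication genes (left) and the 31 G2/M and mitosis genes (right) on RT4P (open circles), RT4P-BSE2 (filled circles) and the other 4 arrays (ticks), 1 array each. Filled circles lie left of open ones in 28 of 32 replication genes and right of open ones in 30 of 31 mitosis genes, in each case by less than 2-fold.

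Among 14 measured secreted epithelial defence proteins, 4 passed 2-fold upward and 1 downward, and their median was 0.30. For this list and those that follow here, the shares of all genes were 1.31% upward and 0.274% downward. The complement factor CFB stood at 7.12 on RT4P and 9.42 on RT4P-BSE2, 4.94-fold higher. The acute-phase protein SAA1 (6.70 and 7.95), the mucin MUC1 (6.59 and 7.83) and the trypsin inhibitor SPINK1 (10.80 and 11.91) differed by 1.24, 1.25 and 1.10, while the protease inhibitor SLPI (6.71 and 5.48) was 2.35-fold lower. Of 13 measured matrix metalloproteinases and inhibitors 2 were higher and 1 lower. The neighbouring proteases MMP10 (7.97 and 9.69) and MMP1 (6.06 and 7.41) on chromosome 11 were 3.29-fold and 2.55-fold higher. Other single genes with higher levels had various roles. TAC3, the neurokinin B precursor, stood at 6.53 and 9.32, 6.93-fold higher, and CYP2S1, an epithelial cytochrome P450, at 6.30 and 8.81, 5.72-fold higher. Their other probes gave smaller log2 differences, 2.23 for TAC3 and at least 1.14 for CYP2S1. The metallothioneins MT1A (6.66 and 8.18) and MT2A (6.07 and 7.53), which bind zinc and other metals and are alike in sequence, differed 2.88-fold and 2.74-fold, with 2 of 6 measured genes of that list past 2-fold. Among transcription factors KLF4 stood at 5.89 and 7.39, 2.82-fold higher, and the receptor KIT at 8.75 and 9.95, 2.30-fold higher.

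Genes with lower levels in RT4P-BSE2 were fewer and closer to 2-fold. TAGLN, an actin-binding protein of contractile cells, stood at 7.63 on RT4P and was not detected on RT4P-BSE2, at least 6.00-fold lower by its brighter probe and the only gene with an established symbol past 4-fold in this direction, whereas its other, dim probe read 5.41 and 4.35. ANXA3, an annexin, stood at 8.34 and 6.80, 2.91-fold lower, and MALL at 8.12 and 6.62, 2.82-fold lower. DKK1, a secreted Wnt antagonist, stood at 9.69 and 8.36, 2.52-fold lower. JUN, a subunit of AP-1, stood at 8.19 and 6.87, 2.49-fold lower, while its partner FOS was higher at 8.02 and 9.06. The protease ADAMTS1 (8.58 and 7.37), the bicarbonate cotransporter SLC4A4 (7.27 and 6.09) and the vasoconstrictor EDN1 (8.39 and 7.31) differed 2.32-fold, 2.26-fold and 2.10-fold. TEAD4, a partner of YAP, stood at 7.62 and 6.60, and in the YAP target list it was the 1 gene of 11 past 2-fold, with a median of -0.28. CCNYL1, PAMR1, PLLP, RHOBTB3 and JPH1, from -1.03 to -1.28, complete the 15 largest lower differences among genes with a log2 level of at least 7 on either array that meet the other conditions given for the higher genes. Below that level CYP3A7 (6.97 and 5.48), EGFL6 (6.66 and 5.25) and SLPI had differences of -1.49, -1.41 and -1.23. In the list of mesenchymal genes and EMT factors TAGLN was the 1 of 8 measured genes past 2-fold, with 3 of the 8 above 0 and 5 below. The adhesion protein CDH2 stood at 5.28 and 6.14, S100A4 at 9.79 and 10.30 and the repressor SNAI2 at 8.93 and 8.20.

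The following groups tied to survival after cisplatin had 0 or 1 gene past 2-fold each. The metallothioneins, given above with 2 of 6 measured genes past 2-fold, are not among these groups. In either direction 1.58% of all measured genes passed 2-fold, so lists of this size would hold few such genes at the share of all genes. Of 18 measured Ras, Myc and IAP genes none passed 2-fold, the median was -0.02 and the largest difference was that of RRAS, at 8.19 on RT4P and 7.62 on RT4P-BSE2. Among 23 measured caspases and death receptors the ligand TNFSF10, or TRAIL, was the 1 past 2-fold, at 6.97 and 7.98, and the median was 0.05. None of 13 measured platinum transporters passed 2-fold in either direction (median 0.03), nor did any of 30 genes for repair of platinum adducts and crosslinks (median -0.04). Among 23 p53 targets MDM2 had the largest difference, at 5.38 and 6.07, below 2-fold. None of 21 NRF2 targets passed 2-fold (median -0.19, 16 of 21 below 0), and the reductase AKR1B10 stood at 6.76 and 5.81. Outside these groups, cytosolic ribosomal protein genes and nuclear oxidative phosphorylation genes had medians of -0.03 and -0.07, with none past 2-fold. In these 2 lists 21 of 34 and 24 of 28 genes were below 0, against 51.1% of all genes.

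The differences had no broad chromosomal pattern at this scale. Of 11196 genes placed on a chromosome, the median ranged from -0.06 on chromosome 5, over 483 genes, to 0.04 on chromosome 17, over 677 genes. In runs of 15 neighbouring measured genes the median lay between -0.31 and 0.34. Of all placed genes 1.52% were higher. Of the 170 higher genes with a position, 41 lay beside another higher gene in the order of measured genes, in 18 runs. Genes detected on neither array were passed over, so members of these runs need not be direct neighbours on the chromosome. The longest of these was the IFIT cluster on chromosome 10, and IFITM2, IFITM1 and IFITM3 on chromosome 11 and OAS1, OAS3 and OAS2 on chromosome 12 formed runs of 3, as did PLOD2, PLSCR1 and AGTR1 on chromosome 3, which are not of 1 family.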

How the data were processed

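Total RNA of 6 samples was hybridised to 1-colour Illumina bead arrays, 1 array per sample, per the labels' protocols. The authors deposited non-normalized signal intensity and a detection p-value for each of 47322 probes, per the file headers, and separately a table of processed intensity, with no account of how it was made. The submitters' processing notes name GenomeStudio, without a version. The RT4P array detected 16733 probes and the RT4P-BSE2 array 17271, against 14749 to 17593 on the other 4. The number of arrays limits the precision.

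From the non-normalized intensity, neqc of limma 3.58.1 in R 4.3.3 applied normexp background correction informed by the detection p-values, an offset of 16, quantile normalization over the 6 arrays and a log2 transform. The offset understates folds of dim genes. Python 3.11.15 did the rest. Of several detected probes, the brightest on average across the 6 arrays stood for the gene. Where it was detected on 1 of the 2 arrays, the dim value was raised to the lowest value of a detected probe there, and bounds pointing the other way became 0. Lists count such genes at their bound. No test was run. The steps were tested on simulated data.

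Of 34694 names, 17762 were current RefSeq symbols (GRCh38.p14), 3281 matched an older symbol, 13624 were kept and 27 had become dates. Named genes are the 15 largest differences per direction that reached a log2 level of 7 on either array and whose other detected probes pointed the same way, leaving out names without an established symbol, plus up to 4 members per list and all members of the urothelial and epithelial identity list. Further members are named for their role, and 2 measured genes are not reported here, although counts and medians over lists hold them. Ras, Myc and IAP genes were to be named at 1.5-fold, which RRAS alone would come near and none reached. The members of this comparison, the 57 lists and the rule were chosen with earlier results of these data known, and a further 6 lists after the values had been seen. Alternatives, 10 in all, changed the background correction, offset, normalization, detection rule, handling of probes or the table used.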

Additional observations from a re-analysis of the deposited data

How the results depend on the processing

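Of the 10 alternatives, that without background correction also put a floor of 16 in place of the offset, and the authors' processed values differ in steps that are not known. Of the 115 named genes past 2-fold, all kept their sign under the 9 alternatives that measured them all, and requiring detection on both arrays left 109 measured, all with the same sign and past 2-fold. However, 67 of the 115 stayed past 2-fold without background correction, 67 with the authors' values and 86 with an offset of 50, against 107 to 115 under the other 6 that measured them all. Without background correction, 99 genes were higher and 5 lower instead of 186 and 39, with the authors' processed values 100 and 5, and with an offset of 50 the count of lower genes was 9. These settings raised the share of higher genes among those past 2-fold from 82.7% to 95.2%, 95.2% and 93.7%, and the cause was not tested. With no detection filter 68 genes were lower. The median of the interferon-stimulated list was 1.68 without background correction, 1.84 with an offset of 50 and 1.70 with the authors' values, and 38 to 41 of its 41 genes past 2-fold stayed so under each alternative, 37 of them under all 10. The hypoxia and glycolysis list had 6 to 8 genes past 2-fold and medians of 0.54 to 0.61. With no detection filter the medians of chemokines and metallothioneins were 0.18 and 0.14 instead of 0.66 and 0.48. The median of Wnt targets, 0.08, was -0.28 with detection on both arrays required. The median of Notch pathway genes, 0.12, was -0.06 with no detection filter and -0.01 with the mean over probes. Chromosome medians moved by at most 0.04. Dim genes close to background have the least certain sizes. No leave-one-out was possible with 1 array per group. No paired analysis was possible because each group holds 1 array.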

Other observations

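Several genes outside the lists, chosen after their values were seen, were also higher in RT4P-BSE2. DEPTOR, an inhibitor of the mTOR kinase, stood at 6.55 on RT4P and 9.03 on RT4P-BSE2, with log2 differences of 2.48 and 2.54 on its 2 probes. The gap junction protein GJA1 stood at 7.31 and 9.35, the secreted phosphoprotein SPP1 at 5.25 and 7.25 and the galectin LGALS1 at 5.83 and 7.51. Creatine kinase CKB stood at 6.29 and 8.27 and was at 4.30 to 5.77 on the other 4 arrays. SPP1 was higher still on blebbishields (8.33) and spheres (9.86). The neighbouring apolipoprotein L genes APOL2 (6.86 and 8.90) and APOL1 (4.61, not detected, and 6.61) were both at least 2-fold higher.

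The near-identical U1 spliceosomal RNA genes RNU1-1, RNU1-3 and RNU1-4 had differences of 1.06, 1.27 and 1.28 and were the 3 of 115 measured small non-coding RNA genes past 2-fold, in a list with a median of 0.00. RNU1-1 stood at 7.75 on RT4P, 8.81 on RT4P-BSE2, 9.49 on spheres and 11.83 on blebbishields. The insulin-like growth factor binding proteins IGFBP3 (11.31 and 12.22), IGFBP5 (10.87 and 11.70) and IGFBP6 (5.35 and 6.28) differed by 0.91, 0.83 and 0.93, and 0 of 9 measured genes of their list passed 2-fold. Fatty acid synthesis and storage genes had a median of 0.29, with 19 of 22 above 0, and cholesterol synthesis genes a median of -0.15, with 18 of 22 below 0. None of either list passed 2-fold.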
